A study of Saccharomyces cerevisiae with 12 samples.

Results

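Replication origins of budding yeast were followed with ODM-seq (occupancy measurement via DNA methylation), in which the methyltransferase M.SssI marks every CpG of fixed chromatin that no nucleosome or other protein covers. All features annotated as an origin of replication on the nuclear chromosomes of the R64 reference were taken, 352 of 360 annotated, the other 8 being mitochondrial. Around each feature centre, CpG sites within 500 bp formed a window and those within 100 bp a core, and sites needed at least 5 calls in every library. This left 9030 of 9054 CpG sites near origins, out of 353646 kept on the nuclear genome. A window held 2 to 55 sites with a median of 25, and a core had a median of 4. Occupancy is given as a percentage, 100 minus the percent methylation after the authors' correction between constructs.

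The 12 libraries came from 3 constructs, with 2 biological replicates each and 2 aliquots per replicate, methylated for 3 h and 4 h. Every strain was ABF1-aa-V5 clone A9 in the BY4741 background, an anchor-away strain in which rapamycin tethers the chromosomal Abf1 to a ribosomal protein and so carries it out of the nucleus. All cultures received 8 µg/mL rapamycin for 75 min in medium without leucine and were fixed with 1% formaldehyde. The no Abf1 strain carried the empty plasmid pRS315, the EM shuffle strain a plasmid for Abf1 with its essential motif shuffled, and the WT Abf1 strain a plasmid for the wild-type protein. In the paper, the shuffled construct belongs to a minimal system that lacks the first disordered region of Abf1. Its designed constructs also carry an added nuclear localisation signal and a Flag tag. The shuffled protein thus differs from WT Abf1 by more than the motif. As a model, each strain derives from a single anchor-away clone, depletion is acute, and the replicates are independent transformants of it.

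Replication starts where the origin recognition complex (ORC) binds, which in this yeast recognises a T-rich element, the ARS consensus sequence (ACS). Origins are known for a nucleosome-free gap at the ACS with positioned nucleosomes on both sides. Abf1 is a general regulatory factor that binds its own consensus at promoters, at some origins such as ARS1, at the silencers of the silent mating-type cassettes and in the X elements of chromosome ends. The Abf1 consensus contains a CpG, so that methylation can be read inside the bound bases as well as in the bases beside them.

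Each library held 13253872 to 37756743 nuclear calls, and the median CpG in origin windows had 33 to 96 calls. The 4 libraries labelled EM shuffle stand apart in 3 ways. They were prepared in another batch (2024-05-28) than all libraries of the other 2 constructs (2024-01-29), so that construct and batch cannot be told apart. Coverage of ABF1, relative to the median of its own chromosome, was 0.898 to 1.12 in them, as in no Abf1 (0.841 to 1.08) and unlike WT Abf1 (1.81 to 2.10), so the plasmid copy named by the label was not seen, and they are called the libraries labelled EM shuffle. Coverage of LEU2, the marker gene of pRS315, was 0.115 to 0.347 in them, 0.772 to 1.08 in no Abf1 and 0.480 to 0.724 in WT Abf1. Chromosome XI, with 16 origins, had 1.16 times the nuclear median coverage in replicate 1 and 1.97 to 2.02 times in replicate 2. In the other 8 libraries it had 0.996 to 1.03 times. ABF1 itself lies on chromosome XI. Over the nuclear median, its coverage in the libraries labelled EM shuffle was 1.04 and 1.29 in replicate 1, and 2.04 and 1.85 in replicate 2. On that scale it was 0.852 to 1.07 in no Abf1 and 1.81 to 2.10 in WT Abf1. The correction between constructs lowers occupancy in the libraries labelled EM shuffle by 12.9 points where the corrected occupancy is 0. The shift is smaller at more covered sites and larger below 0. In no Abf1 occupancy is raised by less than 4.3 points by the correction. The correction puts methylation over 1, hence occupancy below 0, in the libraries labelled EM shuffle at 1.22% to 1.63% of positions and in the others at 0%. Differences of these libraries at open sites therefore depend on it, and uncorrected values stand beside the main ones, a setting that for profiles, single origins and Reb1 matches was added after seeing the data.

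The sequences below show the elements on which the results turn, as read from the R64 reference 5′ to 3′. The first pair shows a whole origin with its surroundings. ARS1 (chrIV:462494-462694, minus strand) has its ACS match in capitals, and ARS317 (chrIII:292628-292779, minus strand), the origin in the HMR-E silencer, has an Abf1 match and then an ACS match in capitals.
ARS1: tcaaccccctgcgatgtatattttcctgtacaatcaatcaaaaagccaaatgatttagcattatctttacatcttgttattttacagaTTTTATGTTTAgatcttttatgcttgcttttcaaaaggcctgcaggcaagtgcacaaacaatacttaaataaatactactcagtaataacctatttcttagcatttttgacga
ARS317: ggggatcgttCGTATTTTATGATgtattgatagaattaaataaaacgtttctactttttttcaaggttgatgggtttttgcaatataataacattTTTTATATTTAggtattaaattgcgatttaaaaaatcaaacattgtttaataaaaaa

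The next 6 are Abf1 matches, in capitals with 20 bases on either side, at origins of chromosome ends, shown because they are copies of a single stretch. They lie at chrI:512-564, chrIII:809-861, chrIII:316020-316072 (minus strand), chrIV:615-667, chrVII:1083871-1083923 (minus strand) and chrX:7478-7530.
ARS102: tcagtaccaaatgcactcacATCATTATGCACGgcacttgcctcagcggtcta
ARS300: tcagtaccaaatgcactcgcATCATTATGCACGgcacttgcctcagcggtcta
ARS319: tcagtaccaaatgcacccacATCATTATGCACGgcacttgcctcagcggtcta
ARS400: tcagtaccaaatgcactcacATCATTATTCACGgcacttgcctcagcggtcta
ARS736: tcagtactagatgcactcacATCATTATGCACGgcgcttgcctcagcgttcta
ARS1002: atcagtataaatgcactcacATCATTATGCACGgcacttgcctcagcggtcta

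The last 6 are the Abf1 matches, again in capitals, in the other origin windows with a called difference. They lie at chrIV:628941-628993, chrIV:629023-629075 (minus strand), chrVI:119239-119291 (minus strand), chrX:455134-455186 (minus strand), chrXI:417021-417073 (minus strand) and chrXII:384625-384677. They are not copies of the stretch above, since each differs from that of ARS102 at 19 or more of 53 bases.
ARS420: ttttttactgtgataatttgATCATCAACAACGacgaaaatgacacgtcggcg
ARS420: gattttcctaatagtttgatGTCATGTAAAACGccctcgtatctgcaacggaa
ARS603.5: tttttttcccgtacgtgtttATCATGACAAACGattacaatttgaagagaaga
ARS1016: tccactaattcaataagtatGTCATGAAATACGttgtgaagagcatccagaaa
ARS1113: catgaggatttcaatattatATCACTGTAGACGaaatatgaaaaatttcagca
ARS1214: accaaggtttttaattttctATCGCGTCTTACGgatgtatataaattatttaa

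Motifs were searched on both strands, and a match is a run of letters, not a measured binding site. An ACS match had its centre in 141 of 352 origin windows (40.1%), against 602 of 11348 other genome tiles of the same length (5.30%). The feature itself held one at 127 origins. The longer form of the ACS was found in 12 origin windows and 1 other tile. An Abf1 match was in 48 origin windows (13.6%) and in 13.1% of other tiles, so origins were no richer in these letters than tiles of all kinds. Among other tiles centred between genes, 558 had a match within 500 bp and 2296 had none. Of the origin windows, 48 had one and 304 had none, a lower share than in those intergenic tiles. Inside the feature itself, 16 origins had one. Matches with the spacer of the Abf1 consensus changed from 5 to 3 or 7 bases served as a comparison and were in 12.5% of origin windows and 19.2% of other tiles. Reb1 is another general regulatory factor, and its motif TTACCCG was in 7.39% of origin windows and 6.17% of other tiles.

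Origins showed a gap in occupancy at the feature centre in every construct, between well-covered flanks. The rDNA is left out of these profiles, since its copies pile up on 2 annotated origins. In the 50 bp upstream of the centre, mean occupancy over CpG sites was 46.6% in no Abf1, 41.0% in the libraries labelled EM shuffle and 45.6% in WT Abf1 (44.3%, 48.6% and 45.6% without the correction). From 100 to 150 bp downstream it was 74.6% in no Abf1, 74.6% in the libraries labelled EM shuffle and 75.4% in WT Abf1. A second, shallower low followed at 200 to 250 bp on both sides, at 62.7% upstream and 64.3% downstream in no Abf1. These lows lay in the same bins in all 3 constructs.

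Aligned on the ACS, the gap was deeper and was lowest on 1 side of the element. In the 50 bp that follow the match centre on the T-rich strand, occupancy was 31.3% ± 1.27 in no Abf1, 21.3% ± 0.527 in the libraries labelled EM shuffle and 29.1% ± 1.39 in WT Abf1 (SD, n = 2 each, 128 sites). Without the correction it was 28.3%, 31.4% and 29.1% in this order, so that the libraries labelled EM shuffle were highest in place of lowest. In the 50 bp before the centre it was 45.7%, 40.7% and 45.9% in the same order. On the far sides it reached 81.3% in no Abf1 from 150 to 100 bp before the centre and 79.7% from 150 to 200 bp after it. ACS matches between genes and over 1000 bp from any origin centre had a shallow low in the same place, with 54.9% ± 0.640 in no Abf1, 50.8% ± 0.358 in the libraries labelled EM shuffle and 53.9% ± 1.25 in WT Abf1 (SD, n = 2 each, 431 sites), or 52.9%, 57.2% and 53.9% without the correction.

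**Figure D1:**
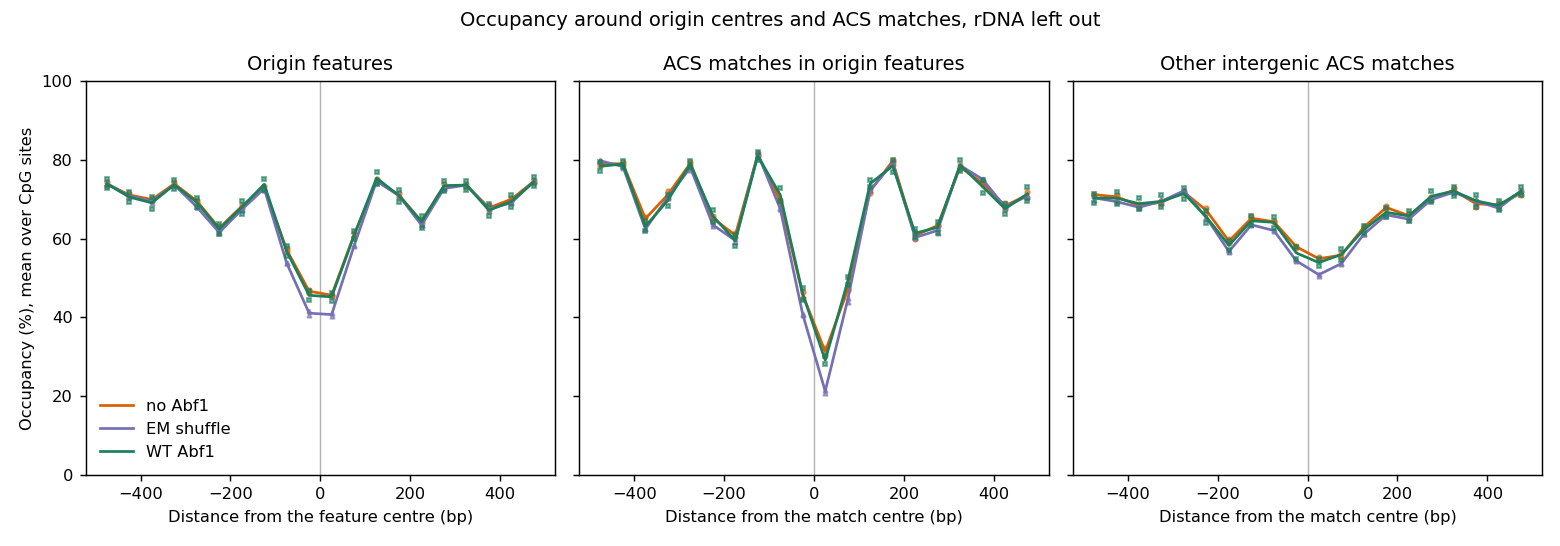
Mean occupancy (%, y axis) over CpG sites in bins of 50 bp against distance in bp (x axis) from the origin feature centre (left), from ACS matches in origin features (middle) and from other intergenic ACS matches (right, the T-rich strand running left to right). Lines are means of 2 replicates and points the replicates, in no Abf1, libraries labelled EM shuffle, and WT Abf1, and the gap falls to 31.3%, 21.3% and 29.1% at ACS matches in origins (28.3%, 31.4% and 29.1% without the correction).

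The gap was compared with other sequence between genes. Pooled over all 1467 core sites, origin cores were less occupied than 14728 intergenic tiles of the same length in 6 of 6 preparations, by 2.61 percentage points (SD 1.25, exact two-sided permutation of signs, p = 0.03125, the lowest possible with 6 preparations). The 2 rDNA origins ARS1200-1 and ARS1200-2 supplied 8 of those sites but between 19.1% and 24.4% of the calls, and without them the difference was 7.37 points, with the same p, a setting added after seeing the data. At ACS matches the rDNA held between 45.0% and 52.8% of the calls and set the direction. With it, sites within 75 bp of an ACS in origins were 2.62 points more occupied than at other intergenic matches (SD 1.79, 5 of 6 preparations, exact sign-flip p = 0.0625). Without it they were 12.1 points less occupied (exact sign-flip p = 0.03125), and 17.3 points less occupied without chromosome ends, rDNA and chromosome XI.

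Single origins covered nearly the whole range. Among the 273 cores with at least 3 CpG sites, occupancy ran between 17.5% and 92.0% in no Abf1, 2.06% and 93.8% in the libraries labelled EM shuffle, and 12.4% and 92.3% in WT Abf1, with medians of 52.9%, 49.1% and 53.8%. The most open were ARS216, ARS222, ARS1126, ARS922 and ARS1623. At ARS216 (chrII:486707-486954, between TFC1 and PTC4) the core averaged 18.4% ± 1.08 in no Abf1, 2.06% ± 3.77 in the libraries labelled EM shuffle and 12.4% ± 2.37 in WT Abf1 (SD, n = 2 each). Without the correction its libraries overlapped between all constructs, and those labelled EM shuffle averaged 2.26 points above WT Abf1. The most covered were ARS412, ARS400, ARS902, ARS710 and ARS1603. ARS412 (chrIV:316771-317230), a putative origin inside VAM6, a gene of vacuolar tethering, averaged 92.0% ± 1.06 in no Abf1, 93.8% ± 1.73 in the libraries labelled EM shuffle and 91.2% ± 4.27 in WT Abf1 (SD, n = 2 each).

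Position went with the level. The 25 origins whose centre lies in a gene had a median core occupancy of 74.0% in no Abf1, against 47.7% for the 155 between tandem genes, 54.2% for the 109 between convergent genes and 58.6% for the 55 between divergent genes. The 53 origins annotated as putative had a median of 70.1% in no Abf1, against 51.5% for the other 299. The 32 origins within 15000 bp of a chromosome end had 66.4%, and the 26 within 15000 bp of a centromere 51.7%. These medians are descriptions, and the classes overlap.

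Well-studied origins illustrate the spread. ARS1 (chrIV:462567-462622, beside TRP1) has only 2 CpG sites in its core, with 82.8%, 87.8%, 80.5% and 80.4% occupancy in the no Abf1 libraries, 77.8%, 68.6%, 72.5% and 69.1% in those labelled EM shuffle, and 75.2%, 80.5%, 79.5% and 80.4% in WT Abf1. The libraries labelled EM shuffle lay below all those of no Abf1 (they overlapped without the correction), but the comparison did not pass (log2 odds ratio of methylation 0.99, SE 0.31, adjusted p = 0.0783 from the quasi-binomial model moderated with limma). The window of ARS1 has no match to the Abf1 consensus used here. At the silencers, the core of ARS302 (HML-I) averaged 28.7% ± 3.32 in no Abf1, 9.33% ± 2.94 in the libraries labelled EM shuffle and 23.8% ± 0.996 in WT Abf1 (SD, n = 2 each), and that of ARS317 (HMR-E) 23.7% ± 2.84, 16.3% ± 2.77 and 19.7% ± 3.08. Without the correction, the libraries labelled EM shuffle overlapped both others at ARS302 and lay above WT Abf1 at ARS317, by 7.38 points. ARS318 (HMR-I) averaged 50.1% ± 5.63 in no Abf1, 55.7% ± 9.46 in the libraries labelled EM shuffle and 63.1% ± 6.72 in WT Abf1, and its 4 no Abf1 libraries lay below those of WT Abf1 without passing (0.76, SE 0.23, adjusted p = 0.062).

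Among origins that fire early in S phase, the core of ARS305 averaged 67.6% in no Abf1, 66.6% in the libraries labelled EM shuffle and 66.9% in WT Abf1, and that of ARS607 44.6%, 36.8% and 42.0%. Among late origins, ARS522 averaged 65.3%, 63.9% and 62.0%, and ARS609 43.4%, 36.4% and 36.1%, so both kinds included open and covered cores. None of the 17 well-studied origins differed past the threshold between no Abf1 and WT Abf1.

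Over all origins, corrected core occupancy without Abf1 differed from that with WT Abf1 by less than the spread of replicates, and the sign turned without the correction. Pooled core occupancy was 57.9% ± 0.315 in no Abf1, 53.5% ± 0.915 in the libraries labelled EM shuffle and 57.6% ± 1.35 in WT Abf1 (SD, n = 2 each). For no Abf1 against WT Abf1 it differed by 0.31 points (exact permutation test, two-sided p = 1), and without the correction by -1.50 points (exact permutation p = 0.333), with both no Abf1 replicates below both of WT Abf1. It was -4.09 points for the libraries labelled EM shuffle compared with WT Abf1 and -4.40 against no Abf1 (exact permutation p = 0.333 for both, the smallest that 2 against 2 allow). Both differences of the libraries labelled EM shuffle turned round too, to 1.90 and 3.39 points. By single core, 249 of 323 lay lower in the libraries labelled EM shuffle than in WT Abf1, with a median difference of -3.71 points, and those with low occupancy lay furthest below. Without the correction 68 lay lower and 255 higher, with a median of 2.73 points. For no Abf1 against WT Abf1, the median over cores was 0.44 points with the correction and -1.57 without it. The correction divides the methylated fraction by 0.871 in these libraries, which moves open sites by more points than covered ones.

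**Figure D2:**
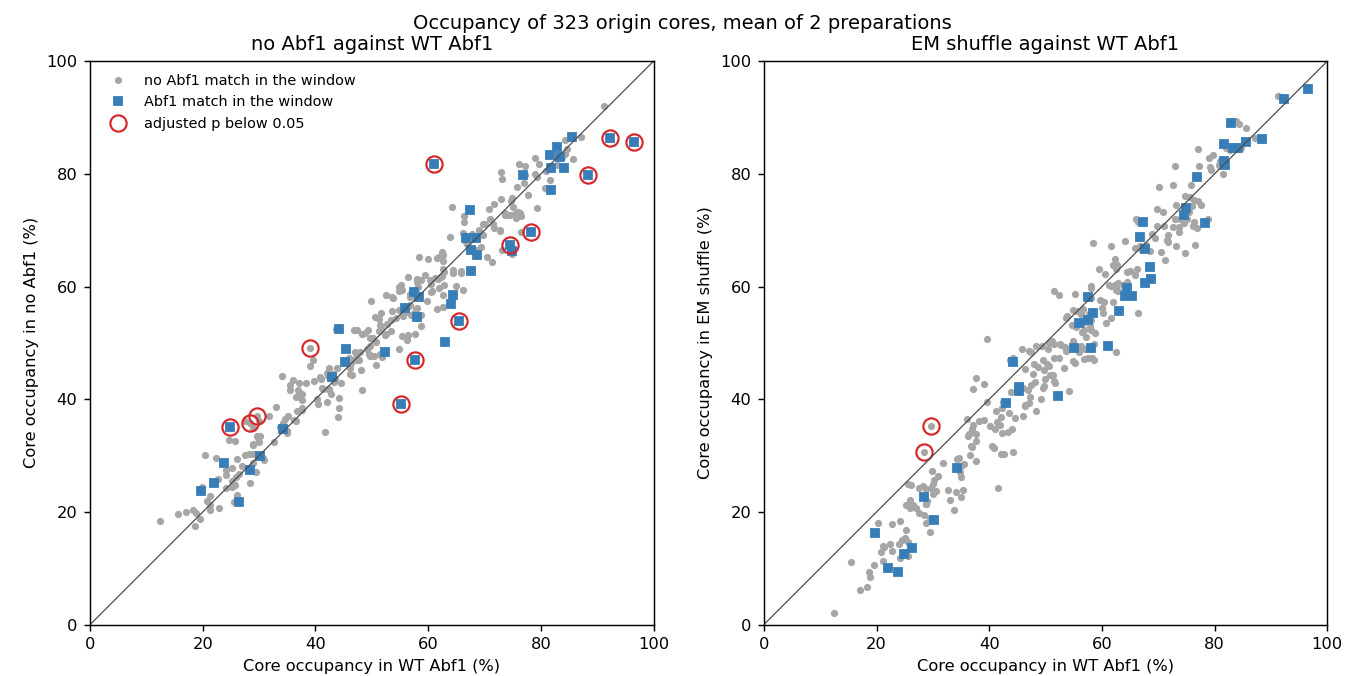
Occupancy of 323 origin cores with at least 2 CpG sites (%, mean of 2 replicates) in no Abf1 (left, y axis) and in the libraries labelled EM shuffle (right, y axis) against WT Abf1 (x axis), with the line of equality. Blue squares have an Abf1 match in the window, grey points none, and red rings mark the 13 and 2 cores with an adjusted p below 0.05. In the right panel 249 cores lie below the line, against 68 without the correction.

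Differences at single origins were tested on methylated and unmethylated calls, in a fit over all windows or cores and all other genome tiles of that length, with the genome average of each construct as an offset. A positive log2 odds ratio means more methylation, hence less occupancy, in the first construct named. In no Abf1 against WT Abf1, 3 of 351 origin windows were called (0.855%), 1 more methylated and 2 less, where 1.45% of all 11699 windows were called. Among cores, 13 of 323 were called (4.02%), beside 3.2% of all 56731 cores. Of these, 8 were more methylated in no Abf1, where 1.64% of all cores were, and 5 were less methylated, where 1.57% were. Without the offset the split was 15 more and 4 less methylated, and with limma on log ratios 6 cores were called. The share of origins called was thus near that of all windows and cores, most of which lie in genes. It was lower than that of intergenic tiles, a difference not tested. Intergenic windows elsewhere were called at 6.45% with an Abf1 match within 500 bp (36 of 558) and at 1.31% without one (30 of 2296). Intergenic cores were called at 530 of 2801 with a match and 368 of 11411 without one. Windows rested on single replicates: the quasi-binomial model called 0 without no Abf1 replicate 1 (15 at an unadjusted p below 0.05) and 0 without replicate 2 (9), but 10 without WT Abf1 replicate 1 and 7 without replicate 2. The cores split into 9 more and 2 less methylated without WT Abf1 replicate 1, and into 3 and 6 without replicate 2.

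Called origins were mostly those with an Abf1 match. Of 44 tested cores with a match in the window, 10 were called (22.7%), and of the 279 without one, 3 (1.08%). Among intergenic tiles elsewhere, 18.9% were called where a match lay within 500 bp and 3.22% where none did, and the difference from origins was not tested. All 8 cores that were more methylated in no Abf1 had a match. The calls with a match are not all independent. Of the 44 cores, 12 have their match in near-identical copies of the chromosome-end stretch shown above. These 12 held 6 of the 10 calls, and 5 of the 8 that were more methylated. The 3 called windows (ARS420, ARS736 and ARS1214) all had it inside the feature, 3 of the 16 origins of that kind. Under the 16 alternatives, from 3 to 12 of the called cores had a match, the lowest share being 3 of 6 with the 4 h aliquots alone.

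ARS736 (chrVII:1083795-1084863, a putative origin between COS6 and YRF1-3, 6611 bp from the chromosome end) had the strongest gain in core occupancy. Its 2 core sites had 80.2%, 83.4%, 80.3% and 83.0% occupancy in the no Abf1 libraries, 45.8%, 60.6%, 42.6% and 48.8% in those labelled EM shuffle, and 63.9%, 60.4%, 65.1% and 54.7% in WT Abf1. All no Abf1 libraries lay above all others. The log2 odds ratio of methylation was -1.47 (SE 0.25, adjusted p = 0.000129) for no Abf1 against WT Abf1, and 2.03 (SE 0.28, adjusted p = 2.2e-06) for the libraries labelled EM shuffle against no Abf1, both from the quasi-binomial model. Both calls held under all alternatives run. Its Abf1 match lies 432 bp from the feature centre.

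ARS1016 (chrX:454584-455555) fills the intergenic region between TDH2, a glyceraldehyde-3-phosphate dehydrogenase, and MET3, the ATP sulfurylase of sulfate assimilation. The 12 sites of its core had 36.0%, 35.9%, 33.7% and 34.4% occupancy in no Abf1, 16.0%, 11.4%, 8.18% and 14.7% in the libraries labelled EM shuffle, and 29.1%, 21.9%, 25.5% and 23.0% in WT Abf1. The 3 constructs did not overlap, but without the correction the libraries labelled EM shuffle overlapped WT Abf1 and differed from it by -1.04 points on average. The log2 odds ratio was -0.63 (SE 0.12, adjusted p = 0.000539) for no Abf1 against WT Abf1 and 0.93 (SE 0.13, adjusted p = 3.72e-06) for the libraries labelled EM shuffle against no Abf1. The CpG inside its Abf1 match, 90.5 bp from the centre, averaged 66.4% in no Abf1, 17.6% in the libraries labelled EM shuffle and 42.8% in WT Abf1. It is 1 of 2 matches at origins where all no Abf1 libraries lay above all of WT Abf1 inside, while 12 of 53 had a higher mean there.

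ARS1113 and ARS1214 were less occupied at the core without Abf1. At ARS1113 (chrXI:417185-417417, between URB1, of ribosome assembly, and ARC19, of the Arp2/3 complex) the 4 core sites had 37.9%, 37.3%, 42.4% and 39.4% in no Abf1, 45.6%, 45.7%, 53.4% and 51.5% in the libraries labelled EM shuffle, and 54.9%, 53.5%, 57.2% and 54.8% in WT Abf1. The log2 odds ratio for no Abf1 against WT Abf1 was 0.99 (SE 0.18, adjusted p = 0.000253), and this call held under all alternatives. ARS1113 lies on chromosome XI, whose coverage is raised in the libraries labelled EM shuffle. At ARS1214 (chrXII:384534-384725, a putative origin between CLF1 and TML25) the match lies 21.5 bp from the centre, so 3 of its CpG sites and the core overlap. Core occupancy was 48.4%, 47.2%, 46.4% and 45.6% in no Abf1, 55.9%, 58.3%, 63.5% and 55.3% in the libraries labelled EM shuffle, and 53.3%, 55.0%, 60.1% and 61.9% in WT Abf1. For no Abf1 against WT Abf1 the log2 odds ratio was 0.65 (SE 0.15, adjusted p = 0.00612), a call lost in 5 of 16 alternatives.

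The window of ARS420 (chrIV:628938-629582, a putative origin between RLI1, of ribosome recycling, and UBC13, a ubiquitin-conjugating enzyme) has 2 Abf1 matches inside the feature. Over its 31 sites, occupancy was 66.9%, 63.3%, 64.7% and 62.6% in no Abf1, 59.3%, 55.3%, 59.5% and 55.8% in the libraries labelled EM shuffle, and 58.0%, 55.2%, 60.3% and 58.4% in WT Abf1. The log2 odds ratio was -0.38 (SE 0.10, adjusted p = 0.0191), and the call was lost in 10 of 16 alternatives.

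The 3 called cores without an Abf1 match were ARS518, ARS810 and ARS811, all less methylated in no Abf1. ARS810 and ARS811 lie in the copies of the CUP1 metallothionein repeat on chromosome VIII. Their windows had coverage 2.34 and 2.63 above other tiles on the log2 scale, so reads of further repeat copies fall on them and they are not independent. Core occupancy of ARS811 was 36.9%, 35.8%, 38.9% and 36.8% in no Abf1, 36.3%, 29.4%, 41.6% and 33.9% in the libraries labelled EM shuffle, and 27.7%, 27.6%, 33.9% and 29.3% in WT Abf1. Its log2 odds ratio for no Abf1 against WT Abf1 was -0.37 (SE 0.07, adjusted p = 0.00132). ARS518 (chrV:438934-439182) averaged 49.1% ± 3.83 in no Abf1, 42.6% ± 3.12 in the libraries labelled EM shuffle and 39.0% ± 2.00 in WT Abf1 (SD, n = 2 each), with -0.53 (SE 0.15, adjusted p = 0.0439), a call lost in 8 of 16 alternatives.

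**Figure D3:**
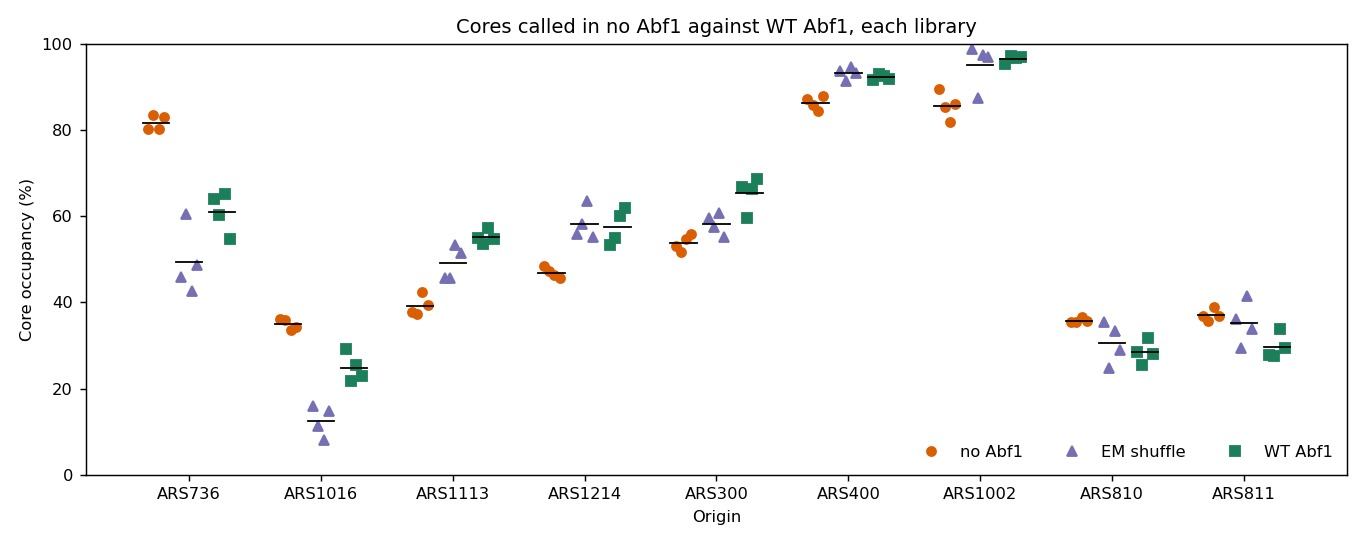
Core occupancy (%, y axis) of 9 of the 13 origins (x axis) called in no Abf1 against WT Abf1. Each point is 1 of 4 libraries of no Abf1, libraries labelled EM shuffle, and WT Abf1, and black bars are means of 2 replicates; at ARS736 no Abf1 lies between 80.2% and 83.4%, WT Abf1 between 54.7% and 65.1%.

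The libraries labelled EM shuffle were called at few origins against WT Abf1, but the count rests on the correction. Here 1 of 351 windows was called, beside 0.308% of all windows, and 2 of 323 cores, beside 0.449% of all cores. Without the offset, 58 windows and 13 cores were called, all less methylated in the libraries labelled EM shuffle. With a replicate left out, 0 windows were called without EM shuffle replicate 1 (6 at an unadjusted p below 0.05) or WT Abf1 replicate 2 (46), and 5 without WT Abf1 replicate 1. Without either no Abf1 replicate, 4 cores were called. The window was the rDNA origin ARS1200-1, with a log2 odds ratio of only 0.07 (SE 0.01, adjusted p = 1.01e-05) on 88775 to 315834 calls per library. Its libraries overlapped, with 65.3%, 63.6%, 66.6% and 64.9% occupancy in those labelled EM shuffle and 66.1%, 63.9%, 68.7% and 67.0% in WT Abf1, and the sign turned without WT Abf1 replicate 2 (-0.02). The cores were again ARS811 (-0.54, SE 0.09, adjusted p = 0.000123) and ARS810 (-0.41, SE 0.09, adjusted p = 0.0118), whose libraries overlapped too.

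Set against no Abf1, the libraries labelled EM shuffle had 6 of 351 windows called, beside 1.65% of all windows, and 8 of 323 cores, beside 3.1% of all cores. All 6 windows (ARS420, ARS736, ARS915, ARS1016, ARS1200-1 and ARS1331) were more methylated in the libraries labelled EM shuffle, and the cores were split into 4 more and 4 less. Of 17 alternatives, the window call was lost in 10 at ARS420, 9 at ARS1016, 8 at ARS1331, 7 at ARS915 and 3 at ARS736. At ARS1200-1 it was lost in 4 and reversed in 2. Without the offset, 247 windows were called, all less methylated, and 84 cores, 3 more and 81 less. Leaving out a replicate gave 1 window without no Abf1 replicate 1 or EM shuffle replicate 2, 2 without no Abf1 replicate 2 or EM shuffle replicate 1, and 16 without either WT Abf1 replicate. Cores called fell to 5 without EM shuffle replicate 1. Among cores more methylated in the libraries labelled EM shuffle, ARS736 and ARS1016 were given above. ARS1411 (chrXIV:169675-169753) averaged 43.6% ± 2.36 occupancy in the libraries labelled EM shuffle and 57.5% ± 3.27 in no Abf1 (SD, n = 2 each; log2 odds ratio 0.60, SE 0.14, adjusted p = 0.007, edge libraries 46.1% and 48.9%, overlapping without the correction). ARS1509 (chrXV:113885-113983) averaged 55.2% ± 2.93 and 72.6% ± 2.14 (1.05, SE 0.28, adjusted p = 0.0271). These calls were lost in 5 (ARS1411) and 6 (ARS1509) of 17 alternatives. Among cores less methylated, ARS400 had -1.02 (SE 0.18), ARS1113 -0.79 (SE 0.16), ARS1214 -0.74 (SE 0.16) and ARS1116 -0.69 (SE 0.17), with adjusted p between 0.000262 and 0.013 in the quasi-binomial model. The first 3 of these had also been called in no Abf1 against WT Abf1; both comparisons share the no Abf1 libraries.

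At the Abf1 matches themselves, loss of Abf1 had opposite signs inside and beside the match. The 53 matches in origin windows hold 65 CpG sites, where occupancy was 66.5%, 64.4%, 65.6% and 64.5% in no Abf1, 70.0%, 67.8%, 70.8% and 68.2% in the libraries labelled EM shuffle, and 74.2%, 73.5%, 74.5% and 72.9% in WT Abf1. Every no Abf1 library lay below every other, and no Abf1 minus WT Abf1 gave -8.53 points. In the 176 sites of the flanks, 10 to 75 bp from the match centre, occupancy was 66.1%, 64.4%, 65.5% and 64.0% in no Abf1, 57.9%, 54.0%, 54.9% and 52.0% in the libraries labelled EM shuffle, and 56.6%, 56.1%, 58.7% and 57.2% in WT Abf1. Here every no Abf1 library lay above every other (overlapping those labelled EM shuffle without the correction), by 7.81 points over WT Abf1 (6.31 without the correction) and with -10.2 points for the libraries labelled EM shuffle against no Abf1 (-2.91 without the correction, exact permutation p = 0.333 for each). The flank difference of the libraries labelled EM shuffle compared with WT Abf1 was -2.43 points and turned to 3.40 without the correction.

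The comparison motifs in the same windows did not show this pair of differences. Inside matches with a changed spacer, occupancy averaged 70.0% ± 1.19 in no Abf1, 70.2% ± 1.73 in the libraries labelled EM shuffle and 70.9% ± 2.95 in WT Abf1 (SD, n = 2 each), and their flanks 69.0%, 67.8% and 68.5%. Inside Reb1 matches it was 44.4%, 29.1% and 40.6%, and in their flanks 29.2%, 20.5% and 27.0%, so both positions had a higher mean in no Abf1 than with WT Abf1. Without the correction the flanks had 26.1% in no Abf1, 30.7% in the libraries labelled EM shuffle and 27.0% in WT Abf1. There no Abf1 turned to lie below WT Abf1, and the libraries labelled EM shuffle were highest in place of lowest. The inside then had 42.0%, 38.2% and 40.6% in the same order. Of the 53 Abf1 matches, 25 had no Abf1 libraries entirely below those of WT Abf1 inside and 2 entirely above. In the flanks 27 had them entirely above and 0 below. With a changed spacer it was 7 below and 1 above of 50 inside, and 2 above of 48 in the flanks. Abf1 matches between genes and over 1000 bp from any origin had 462 of 969 entirely below and 64 above inside, and 520 of 945 above and 22 below in the flanks. Their levels were lower, at 51.1% in no Abf1, 53.5% in the libraries labelled EM shuffle and 60.8% in WT Abf1 inside.

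**Figure D4:**
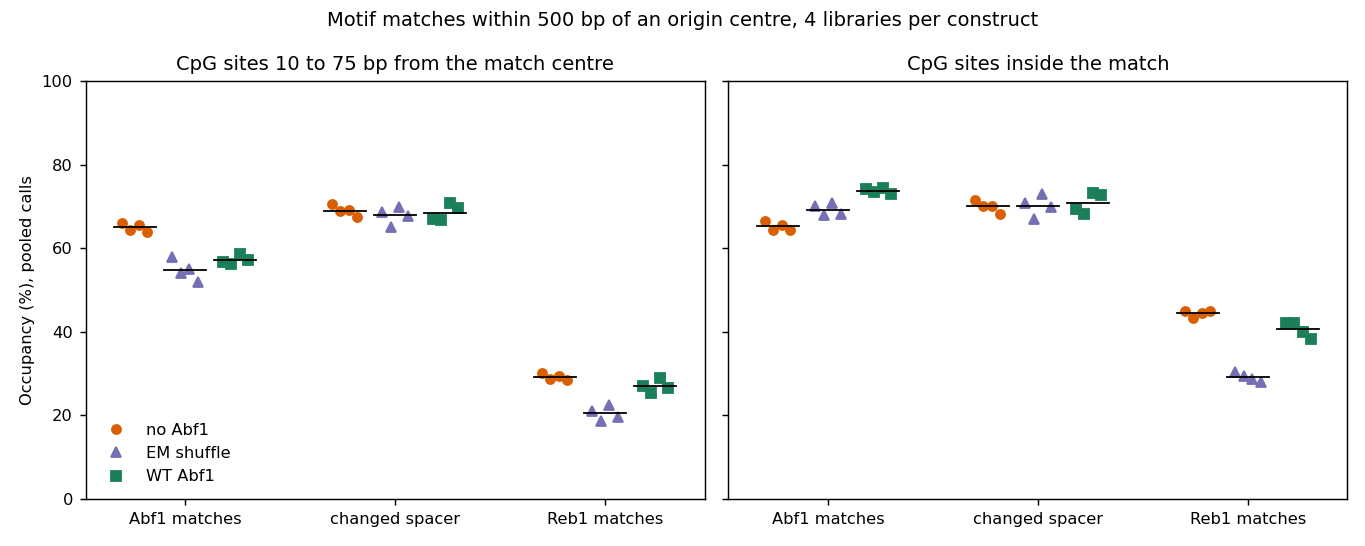
Pooled occupancy (%, y axis) of CpG sites beside (left) and inside (right) Abf1 matches, matches with a changed spacer and Reb1 matches (x axis) within 500 bp of an origin centre. Points are the 4 libraries each of no Abf1, libraries labelled EM shuffle, and WT Abf1, bars the means of 2 replicates; at Abf1 matches no Abf1 is highest in the flanks (64.0% to 66.1%) and lowest inside (64.4% to 66.5%).

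Single matches gave examples of both. At ARS1113 the CpG inside the match averaged 58.0% in no Abf1, 76.5% in the libraries labelled EM shuffle and 83.0% in WT Abf1, and its flanks 53.8%, 28.5% and 27.7%. ARS1021, known as ARS121 for its Abf1-dependent activity, has 2 matches in its window. The CpG inside the first averaged 49.2%, 70.8% and 75.9% in the same order, and inside the second 49.4%, 66.5% and 70.0%. At ARS317, the flanks of the silencer's match averaged 34.8%, 12.3% and 20.4%, while the libraries overlapped inside it. At ARS302, the match of the HML-I silencer overlapped between no Abf1 and WT Abf1 at both positions. At ARS1634, with a match 9 bp from the centre, the inside overlapped too and the flanks averaged 25.3%, 8.67% and 19.3%. All these values carry the correction. Corrected flank means of the libraries labelled EM shuffle exceeded those of WT Abf1 at 24 of the 53 matches, and uncorrected ones at 42. Inside the matches the counts were 16 and 26, so their order against WT Abf1 at a single match can turn with the correction.

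Copies of a single chromosome-end stretch supplied the most uniform group. Of the 53 matches, 12 lie in near-identical stretches of 53 bases, with at most 8 differences from that of ARS102, while all others differ by at least 19. All 12 are at origins that overlap an annotated telomere: ARS102, ARS201, ARS300, ARS319, ARS400, ARS523, ARS600, ARS736, ARS824, ARS1002, ARS1025 and ARS1632. Inside these matches occupancy averaged 74.8% ± 0.116 in no Abf1, 85.5% ± 0.742 in the libraries labelled EM shuffle and 88.8% ± 0.208 in WT Abf1 (SD, n = 2 each), and in the flanks 84.3% ± 0.177, 77.2% ± 0.135 and 72.0% ± 1.33. No Abf1 libraries lay entirely below WT Abf1 inside at 11 of 12 and entirely above in the flanks at 12 of 12. Among the other 41 matches it was 14 and 15. These 41 include the match of ARS610, which also overlaps an annotated telomere, and its libraries overlapped at both positions. Without the 12, the inside averaged 62.0%, 64.3% and 68.1%, and the flanks 59.9%, 49.6% and 52.9%, so the directions of no Abf1 against WT Abf1 were the same in both. The stretch was grouped by sequence after these values were seen, its copies are not independent, and reads can be misplaced between copies. The windows of ARS102, ARS300, ARS319 and ARS400 had coverage 0.99 to 1.15 above other tiles on the log2 scale.

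**Figure D5:**
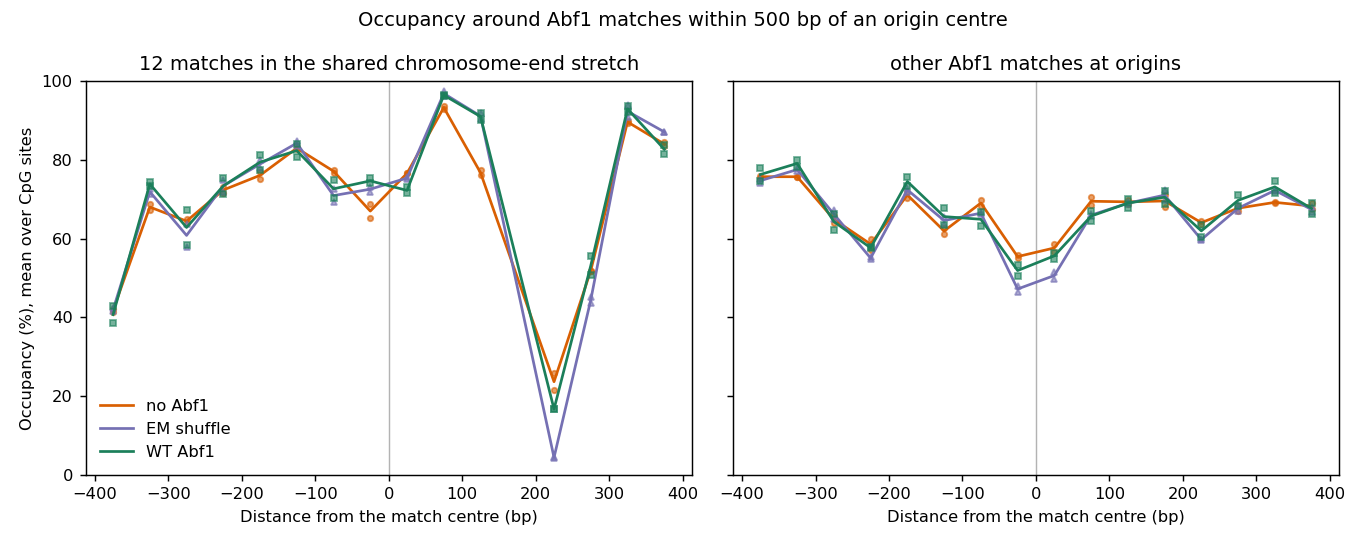
Mean occupancy (%, y axis) over CpG sites in bins of 50 bp against distance in bp from the Abf1 match centre (x axis, the strand of the consensus running left to right), for the 12 matches of the shared chromosome-end stretch (left) and the 41 others (right). Lines are means of 2 replicates and points the replicates. In the left panel no Abf1 lies below the others in the bin that ends at the match centre, which holds only 3 sites. In the next bin, with 28 sites, no Abf1 is highest, at 76.6% against 75.4% in the libraries labelled EM shuffle and 72.2% in WT Abf1. The bin at 225 bp also holds 3 sites.

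The feature centres of the same 12 origins lie 72 to 457 bp from the match centre, and 11 of the features hold an ACS. Since a core reaches 100 bp from the feature centre, the match of ARS1632 lies inside its core. The flanks of the match of ARS400 reach into its core. Of these cores, 6 passed in no Abf1 against WT Abf1, 5 of them more methylated, with a median log2 odds ratio over the 12 of 0.41 against 0.02 over all origin cores. At ARS400 (chrIV:137-1392) the core had 87.3%, 85.8%, 84.5% and 87.9% occupancy in no Abf1, 93.8%, 91.4%, 94.6% and 93.3% in the libraries labelled EM shuffle, and 91.7%, 92.9%, 92.5% and 92.0% in WT Abf1 (0.89, SE 0.15, adjusted p = 0.000142). At ARS300 (chrIII:989-1068) it had 53.0%, 51.7%, 54.7% and 55.8% in no Abf1, 59.6%, 57.5%, 60.9% and 55.2% in the libraries labelled EM shuffle, and 66.9%, 59.5%, 66.4% and 68.8% in WT Abf1 (0.74, SE 0.14, adjusted p = 0.000677). ARS1002 (2.15, SE 0.51), ARS102 (0.96, SE 0.23) and ARS319 (0.51, SE 0.12) completed the 5, with adjusted p between 0.0075 and 0.0102, but their calls were lost in 6, 4 and 5 of 16 alternatives. With a replicate left out, the adjusted p reached 0.108 for ARS1002, 0.167 for ARS102 and 0.205 for ARS319. ARS736 was the 1 in the other direction. ARS603.5 (0.63, SE 0.16, adjusted p = 0.0195, lost in 6 of 16 alternatives) was the remaining core called more methylated, and its match, 468 bp away, belongs to none of these copies.

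Incubation time moved every preparation the same way. Methylation of the origin windows was 1.68 points higher after 4 h than after 3 h (SD 0.173, 6 of 6 preparations, exact sign-flip permutation p = 0.03125), between 1.43 and 1.89 points. The genome average rose in every preparation too, so the rise was not particular to origins. In WT Abf1 it went from 28.6% to 30.2% in replicate 1 and from 26.1% to 27.4% in replicate 2. Origins were also slightly better covered by reads than other tiles of their chromosome, by a ratio of 1.02 (log2 0.02, SD 0.01, 6 of 6 preparations, exact sign-flip p = 0.03125). Without chromosome ends, rDNA and chromosome XI, the log2 ratio was 0.02 as well but no longer passed (exact sign-flip p = 0.0625). By named group, the 5 early origins (ARS1, ARS305, ARS306, ARS606 and ARS607) had a median log2 coverage of 0.08 and the 3 late origins (ARS522, ARS603 and ARS609) -0.05, values that overlap (-0.03 to 0.11 and -0.18 to 0.03). Counting error depended on the number of sites. The 2 core sites of ARS1 carried 50 to 212 calls per library and a 95% Wilson interval of up to 13.3 points on either side, and the 12 of ARS1016 carried 265 to 1237 calls and at most 5.51 points. These intervals cover counting error only.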

How the data were processed

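The authors basecalled Nanopore reads with Dorado, aligned them with minimap2 2.17 to sacCer3 (R64), used SAMtools 1.9 and 1.15, and piled up methylation calls per CpG with modkit. The deposited tables give methylation as a fraction, occupancy as 1 minus that fraction, the count of calls at each position, and the ratio of genome averages (construct over WT Abf1) by which the authors divided methylation. Fraction times factor times coverage gave whole methylated calls at 100% of positions, and calls of both strands were added. Sites needed 5 calls in every library. Groups come from the sample titles.

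Calls of the 3 h and 4 h aliquots were summed per preparation. A quasi-binomial logistic model (pseudocount 0.5, construct genome average as a logit offset) was fitted to windows (at least 5 sites) and cores (at least 2) with all other tiles, with the dispersion moderated by limma 3.58.1 (squeezeVar, R 4.3.3), and p-values adjusted by Benjamini-Hochberg over the whole table at 0.05. The model was tested on simulated data. Origin sets were compared with exact permutation tests in Python 3.11.15. No test was described in the study's methods for these regions. Median coverage per CpG in origin windows was 33 to 96 calls per library. Alternatives were the offset, limma on log ratios, coverage minimum, window width, each aliquot, the constructs in the fit, a replicate block, each replicate left out and, added after seeing the data, leaving out the rDNA origins and uncorrected methylation at single origins, profiles and Reb1 matches. Features were read from the R64 annotation of the reference, and all positions in the files lay at a CG of it.

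Origins and lists were chosen with earlier results of these data known. The origins named were 17 well-studied ones, up to 5 per direction with the largest change among those called with libraries that do not overlap, for windows and cores in each comparison, the 5 lowest and 5 highest cores among those with at least 3 sites, and up to 5 called ones with an Abf1 match in the feature. The other called origins were named after their values were seen.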

Additional observations from a re-analysis of the deposited data

Results flagged for a closer look

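In 93 groups of 4 libraries, from pooled sets of sites and from the 23 called windows and cores, 6 had 1 library far from the other 3. With 4 independent values per group, chance alone would flag about 1 in 20 groups. The libraries here are pairs of aliquots and the groups overlap, so that rate need not hold. In the core of ARS1002, EM shuffle replicate 1 at 4 h had 87.5% occupancy, against 96.9% to 98.8% in the others labelled EM shuffle. In the core of ARS1116, no Abf1 replicate 1 at 4 h had 45.6%, against 35.6% to 36.4%. In the core of ARS1509, EM shuffle replicate 2 at 3 h had 60.7%, against 53.0% to 53.9%. In the window of ARS1016, no Abf1 replicate 1 at 3 h had 61.1%, against 56.9% to 57.1%. In the window of ARS1331, WT Abf1 replicate 1 at 4 h had 63.2%, against 70.8% to 72.0%. In the window of ARS915, EM shuffle replicate 2 at 4 h had 53.0%, against 59.7% to 60.8%.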

How the results depend on the processing

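Without the offset the log2 odds of all windows moved by -0.26 for the libraries labelled EM shuffle and by 0.09 for no Abf1. Windows called without it were 8 (no Abf1 against WT Abf1), 58 (libraries labelled EM shuffle, compared with WT Abf1) and 247 (the same against no Abf1), and cores 13 and 84 in the last 2 of these comparisons. In the order of these comparisons, an offset per preparation gave 11, 4 and 22 windows, and 14 cores in the last. Limma gave 1, 0 and 2 windows (19 at an unadjusted p below 0.05 for the 0), and 6 and 0 cores in the first 2 (48 for the 0). Windows of 250 bp gave 5 and 2 calls in the first 2. The 3 h aliquots alone gave 1 window in the first and the last comparison, and 4 cores in each of these, and the 4 h aliquots alone 1, 0 and 2 windows (13 unadjusted for the 0), and 6 and 1 cores in the first 2. With only the constructs compared in the fit, 16 windows were called in the last and 4 cores in the second.

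Leaving out each replicate gave 0 to 10, 0 to 5 and 1 to 16 windows, and 9 to 15, 2 to 4 and 5 to 12 cores; an arm left with 1 preparation was assumed to vary like the others. Mean core differences then ranged from -0.64 to 1.26, -5.04 to -3.14 and -5.05 to -3.75 points, and Abf1 flanks from 7.05 to 8.58, -3.70 to -1.17 and -11.5 to -8.98 points. For the rest the ranges were -2.87 to -2.18 points (cores minus tiles), 2.22 to 3.27 points (ACS), 1.64 to 1.73 points (4 h minus 3 h) and 0.02 to 0.03 (log2 coverage). Replicate numbers did not pair the preparations, whose same-numbered deviations correlated at -0.054 to 0.034, and the replicate block gave 2, 1 and 3 windows, and 15, 5 and 8 cores.

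Uncorrected methylation gave mean core differences of -1.50, 1.90 and 3.39 points and Abf1 flank differences of 6.31, 3.40 and -2.91 points, so that all 3 core differences, and the flank difference of the libraries labelled EM shuffle from WT Abf1, turned round. A stricter Abf1 consensus gave 9.47 points for no Abf1 against WT Abf1. The ACS difference turned to -12.1 points without the rDNA origins (chosen after seeing the data), -14.7 points as a mean over sites, -17.3 points without chromosome ends, rDNA and chromosome XI, and -19.1 points for the longer ACS, of which only 1 match lies elsewhere. Log2 coverage without chromosome ends, rDNA and chromosome XI was 0.0159 (exact sign-flip p = 0.0625). For ARS1200-1 the log2 odds ratio turned to -0.18 and -0.30 without the offset (against WT Abf1 and no Abf1), to -0.0530 and -0.0741 with 250 bp. Against WT Abf1 it ranged from -0.0218 (without WT Abf1 replicate 2) to 0.160 with a replicate left out. No other named call changed direction under the alternatives run.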
